A study of Homo sapiens with 6 samples.

Results

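The 9 genes described here encode proteins of the protein kinase family, called kinases below, that act in mitosis or its checkpoint. They are AURKA, AURKB, BUB1, BUB1B, TTK, NEK2, PBK, MELK and MASTL. They were taken by symbol from the deposited gene table, reference chromosomes only, and make up 9 of the 63152 genes counted. Their mRNA was measured by RNA-seq in A549 cells, a human lung adenocarcinoma line, in siRPS19 cells and in siOTP cells. The siRPS19 group was reverse transfected with a SMARTpool of siGENOME siRNAs against RPS19, a gene for a protein of the small ribosomal subunit. The siOTP group received an ON-TARGETplus non-targeting siRNA, and both groups were treated at 10 nM for 72 hours with 3 biological replicates each. The reagents belong to different siRNA product lines, so chemistry and target differ together and cannot be told apart, and both groups are a single cell line.

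In a dividing cell these kinases act in sequence. Aurora A matures centrosomes and builds spindle poles, NEK2 separates the centrosomes, and Greatwall, the product of MASTL, holds back the phosphatase that would undo mitotic phosphorylation. TTK (MPS1), BUB1 and BUBR1, the product of BUB1B, sit at kinetochores and delay anaphase until chromosomes are attached, while Aurora B, the enzyme of the chromosomal passenger complex, corrects faulty attachments. PBK (TOPK) and MELK are further kinases that are abundant in proliferating cells. As background, mRNAs of many of these genes are known to be made mainly in the G2 and M phases.

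All 9 kinase mRNAs were lower in siRPS19, by 7.66-fold for MASTL to 77.8-fold for PBK, and for each of them every siRPS19 library lay below every siOTP library. All 9 passed edgeR's quasi-likelihood test, with adjusted p between 8.37e-24 and 2.89e-16. Most of the transcriptome also differed. Of 17171 genes tested, 78.3% passed, 38.9% in the downward and 39.5% in the upward direction, and 12.4% passed with a fall of at least 2-fold. The siRPS19 libraries lay wholly below the siOTP libraries for 39.6% of tested genes and wholly above them for 40.1%. The members' median log2 fold change was -5.53, against 0.02 over all genes tested. Ordered from the lowest log2 fold change up, the members held places from 8 (PBK) to 277 (MASTL) among the 17171. In a bulk sample, fewer cells that express a gene and less RNA per cell cannot be told apart, which touches every value below.

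The libraries held 20814110 to 23889372 counts on genes. RPS19 itself had 44.6, 36.0 and 44.4 CPM (counts per 1e+06 counts of the library, scaled by edgeR's TMM method) in siRPS19 replicates 1 to 3, against 1474, 1374 and 1567 CPM in siOTP. All 9 A549 and epithelial marker genes were detected in both groups, but 8 were lower and 1 higher in siRPS19, and with library totals 6 were lower and 1 higher. KRT7 stood at 2373 ± 140 CPM in siRPS19 and 3430 ± 27.5 CPM in siOTP (mean ± SD over the 3 libraries of a group). The aldo-keto reductase gene AKR1B10 fell 5.17-fold, to 613 ± 71.9 CPM in siRPS19, against 3171 ± 220 CPM in siOTP, and the E-cadherin gene CDH1 rose 1.63-fold. Of the markers of other cell types, CD3E had no count, which allows up to 3 counts in a library, PTPRC and CDH5 had 0 to 4 counts in any library, and the collagen gene COL1A1 had 508, 336 and 336 counts in siRPS19, against 826, 701 and 620 in siOTP. COL3A1 lay at 0.413 ± 0.0921 CPM in siRPS19 and 2.47 ± 0.493 CPM in siOTP. PECAM1 was on the marker list but could not be matched on the reference chromosomes of the deposited gene table, so it was not analysed. Reads outside genes took 5.13% to 6.36% of all entries in siRPS19 and 3.39% to 3.85% in siOTP, and their part in the results was not tested.

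The Aurora kinases were the most abundant pair per length in siOTP apart from PBK, which lay between them. AURKA (ENSG00000087586, chromosome 20, 54944445 to 54967393, hg19) had 6.23, 4.38 and 6.83 CPM in the siRPS19 replicates, against 225, 232 and 226 CPM in siOTP. Its mRNA fell 39.0-fold, or -5.28 ± 0.08 (SE) in log2 units, with an adjusted p of 2.89e-16. The coefficient of variation was 22.0% in siRPS19 and 1.49% in siOTP, and siRPS19 replicate 2 stood below replicates 1 and 3. AURKB (ENSG00000178999, chromosome 17, 8108056 to 8113918, hg19) had 2.27, 1.91 and 2.69 CPM in siRPS19, against 149, 154 and 153 CPM in siOTP. That is a 66.1-fold fall (log2 fold change -6.05 ± 0.07 SE, adjusted p = 1.58e-23). The groups were 55.3-fold apart even from the highest siRPS19 library to the lowest siOTP library. The germline-enriched relative AURKC had 3, 6 and 5 counts in siRPS19 and 2, 3 and 2 in siOTP and was too low to test.

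Kinases of the spindle checkpoint fell to between 1.49% and 2.25% of their control level. BUB1 (ENSG00000169679, chromosome 2, 111395275 to 111435691, hg19), whose kinase marks centromeric chromatin and recruits checkpoint proteins, had 3.23, 2.56 and 2.73 CPM in siRPS19, against 189, 191 and 193 CPM in siOTP. Its relative BUB1B (ENSG00000156970, chromosome 15, 40453224 to 40513337, hg19), which encodes a part of the complex that inhibits the anaphase-promoting complex, had 2.31, 2.13 and 2.77 CPM in siRPS19, against 111, 114 and 109 CPM in siOTP. TTK (ENSG00000112742, chromosome 6, 80713604 to 80752244, hg19), the kinase at the top of the checkpoint, had 1.65, 1.21 and 1.37 CPM in siRPS19, against 62.5, 64.2 and 61.4 CPM in siOTP. The falls were 66.9-fold for BUB1, 46.2-fold for BUB1B and 44.0-fold for TTK, with no overlap between groups. The last 3709 bases of BUB1B are annotated as shared with PAK6 on the same strand, but PAK6 held at most 6 counts in any library.

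NEK2 (ENSG00000117650, chromosome 1, 211836114 to 211848960, hg19) had the lowest CPM of the 9 after RPS19 siRNA. It measured 1.5, 0.824 and 1.08 CPM in siRPS19, which is 39, 19 and 26 counts, against 88.3, 88.0 and 91.4 CPM in siOTP. The fall was 77.5-fold (log2 fold change -6.28 ± 0.09 SE, adjusted p = 4.27e-22). Its siRPS19 libraries varied most among the members, with a coefficient of variation of 30.2%, against 2.12% in siOTP. PBK (ENSG00000168078, chromosome 8, 27667137 to 27695612, hg19), a kinase active in mitotic cells, had 2.00, 2.04 and 1.95 CPM in siRPS19, against 149, 159 and 159 CPM in siOTP. Its replicates were the most alike of the 9 in siRPS19, with a coefficient of variation of 2.35% on 52, 47 and 47 counts. At counts as low as those of NEK2 and PBK, sampling noise alone moves this coefficient, and the difference between the genes was not tested. The fall of PBK had a log2 value of -6.28 ± 0.07 (SE, adjusted p = 9.19e-24). PBK and ESCO2, a gene on the opposite strand, overlap by 3021 bases, and ESCO2 held 54, 33 and 46 counts in siRPS19 and 1238, 1251 and 1268 in siOTP. No label states that the kit marked strand, and how the counting treated reads in that overlap is not given in the sources used here.

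MELK and MASTL kept more of their mRNA. MELK (ENSG00000165304, chromosome 9, 36572859 to 36677678, hg19) had 5.35, 5.16 and 5.67 CPM in siRPS19, against 123, 130 and 124 CPM in siOTP, a 23.3-fold fall (log2 fold change -4.54 ± 0.06 SE, adjusted p = 6.11e-23). MASTL (ENSG00000120539, chromosome 10, 27443753 to 27475853, hg19) had 8.39, 6.90 and 7.90 CPM in siRPS19, against 59.1, 57.9 and 61.3 CPM in siOTP. Its log2 fold change was -2.94 ± 0.07 (SE, adjusted p = 5.15e-19), and 13.0% of the control level was left, against 1.27% to 4.29% for the other 8. MASTL shares 443 bases at its start with YME1L1 on the opposite strand. YME1L1 held 4406 to 4892 counts in siRPS19 and 5922 to 6430 in siOTP, and its log2 fold change was -0.69. The part of that overlap in the MASTL counts was not tested.

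**Figure D1:**
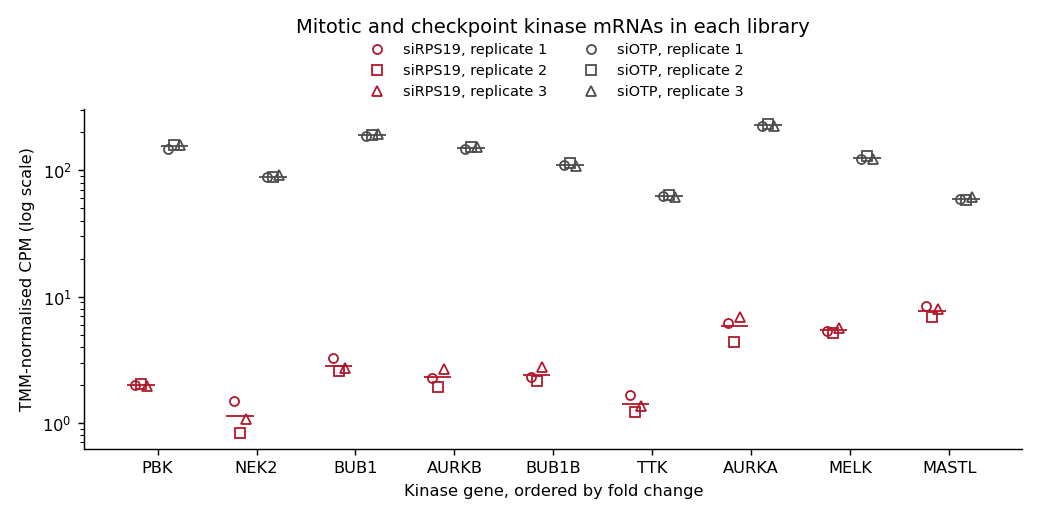
TMM-normalised CPM of each kinase on a log axis, with 1 symbol per library (siRPS19 in red on the left of each pair, siOTP in grey on the right) and a line at the group mean. The siRPS19 libraries lie between 0.824 and 8.39 CPM and the siOTP libraries between 57.9 and 232 CPM, and siRPS19 replicate 2 (square) is the lowest red symbol for 8 of the 9 genes.

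Among the siRPS19 libraries, replicate 2 was lowest for 8 of the 9 genes (PBK was the exception), and the members' summed level was 32.9, 27.1 and 33.0 CPM in replicates 1 to 3, against 1156, 1190 and 1178 CPM in siOTP. RPS19 mRNA was also lowest in siRPS19 replicate 2, as was the library total. Their part in the lower kinase level was not tested, and the share of all genes lowest in that library was not counted. The sample descriptions give same-numbered replicates of both groups the same date, and what was done on it is not stated. All 9 kinases were lower in siRPS19 within each date. Within dates the log2 ratio of siRPS19 to siOTP ranged from -5.72 to -5.05 for AURKA and from -6.74 to -5.88 for NEK2. For PBK it stayed between -6.35 and -6.22.

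The size of the fall ranged among the members, and MASTL fell least. Each member was set against the mean of the other 8 as a log2 ratio of CPM + 0.5 in each library. MASTL stood at 1.45, 1.44 and 1.39 in siRPS19, against -1.11, -1.18 and -1.08 in siOTP, a shift of 2.55. MELK shifted upward as well, by 0.80, while PBK (-0.94), BUB1 (-0.80), NEK2 (-0.75) and AURKB (-0.73) shifted downward, and for all of these the groups did not overlap. The exact two-sided permutation test gave p = 0.1 for each, the smallest value that 3 libraries against 3 allow, and 0.1375 after Benjamini-Hochberg adjustment over 11 ratios. None can pass at this size. AURKA (-0.07, adjusted p = 0.7), TTK (0.09, 0.33) and BUB1B (-0.16, 0.2444) shifted by less, in the same exact test. MASTL is part of the mean for each other member, so its shift of 2.55 lowers their values by construction. Small shifts can therefore take their sign from MASTL, and no ratio without it was computed. The order of the shifts also depended on the constant added. With CPM + 5 the shift was 1.78 for MASTL, 0.31 for MELK, -0.67 for PBK, -0.81 for BUB1 and -0.57 for AURKB. With the same constant it was -0.02 for NEK2, -0.05 for BUB1B, 0.59 for TTK and -0.57 for AURKA, so that NEK2 no longer stood apart (exact permutation p = 0.8) and TTK and AURKA did.

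Proportions within the related pairs also shifted, without overlap between groups. On the same scale the log2 ratio of AURKA to AURKB was 1.17 ± 0.13 in siRPS19 and 0.58 ± 0.02 in siOTP (± SD, 3 libraries per group), a shift of 0.58 toward AURKA. With 5 CPM added in place of 0.5 the shift was -0.0049. The ratio of BUB1 to BUB1B was 0.20 ± 0.21 in siRPS19 and 0.78 ± 0.04 in siOTP (± SD, 3 libraries per group), a shift of -0.57. Both gave an exact permutation p of 0.1 and 0.1375 after adjustment.

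Divided by the transcript length in the deposited table, the order of the kinases differed between the groups. RPKM (the CPM divided by that length in kilobases, computed here per library) in siRPS19 was led by MASTL at 2.13 ± 0.209, AURKA at 1.99 ± 0.436 and MELK at 1.75 ± 0.0833 (SD, n = 3), each overlapping the next. AURKB (1.02 ± 0.175) and PBK (0.921 ± 0.0217) overlapped next, and the lowest 4, BUB1B, BUB1, NEK2 and TTK, lay between 0.537 and 0.308, each overlapping its neighbour. In siOTP the order was AURKA (77.8 ± 1.16 RPKM), PBK (71.9 ± 2.68), AURKB (68.0 ± 1.24), MELK (40.6 ± 1.16), BUB1 (31.7 ± 0.325), NEK2 (29.5 ± 0.624), BUB1B (24.9 ± 0.579), MASTL (16.4 ± 0.470) and TTK (13.7 ± 0.310). There only PBK and AURKB overlapped among neighbours. MASTL made up 22.4% of the summed RPKM of the 9 in siRPS19 and 4.37% in siOTP. PBK made up 9.70% in siRPS19 and 19.2% in siOTP. The authors' deposited table, with 1 RPKM value per group, gives the same order in both groups. These are levels for 1 listed length per gene, and which transcript it measures is not stated.

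**Figure D2:**
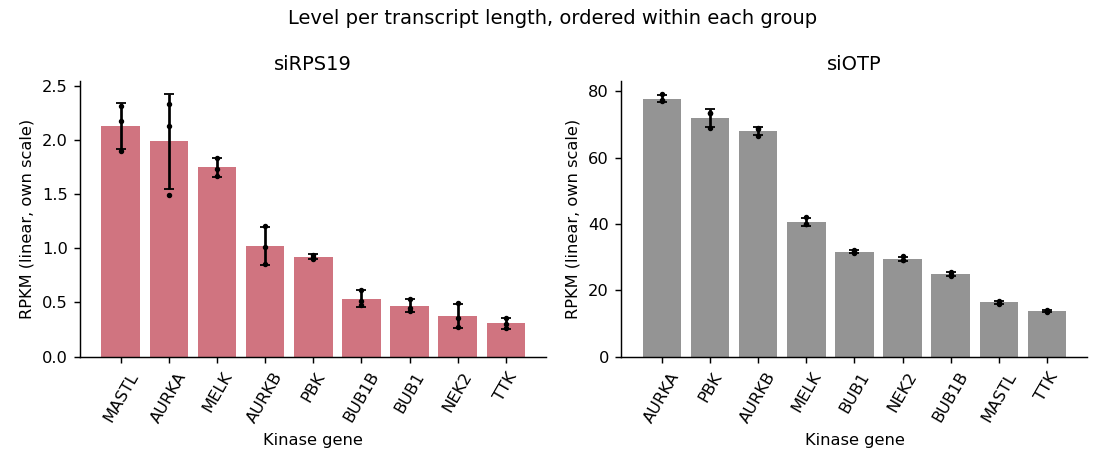
Mean RPKM of each kinase in siRPS19 (left) and siOTP (right), on linear axes with different scales, with bars ordered within each group, error bars of 1 SD and a point per library. MASTL leads at 2.13 RPKM in siRPS19 and is next to last at 16.4 RPKM in siOTP.

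The promoters of the kinases are shown because all 9 mRNAs were lower in siRPS19, as were 38.9% of tested genes. Mitotic genes are also known, as background, for CCAAT boxes bound by NF-Y and for the cell cycle genes homology region (CHR) bound by MuvB complexes. RefSeq promoters (GRCh38.p14) matched 6 members by symbol: AURKB, BUB1, BUB1B, MELK, MASTL and NEK2. In the 250 bases before the listed start, CCAAT on either strand was present for AURKB, BUB1 and NEK2, and for 32% of all 35116 promoters. The CHR core, searched as TTTGAA and as TTCGAA on either strand, was present for BUB1B and MASTL and for 14.3% of all promoters. An E2F core, searched as TTCCCGC, as TTGGCGC, as TTCGCGC and as TTGCCGC on either strand, was found for none of the 6 and for 10.9% of all promoters. TTCGAA reads the same on both strands, and no match overlapped one of another motif. BUB1 and NEK2 each held a pair of CCAAT boxes, and 9.53% of all promoters held at least 2. The 6 matched members are too few to read against any of these shares. Members were counted per gene and all promoters per entry. The sequences follow 5′ to 3′ on the gene's strand and end at the base before the start, with every match in capitals. They are BUB1 (chr2:110678064-110678313, minus strand), NEK2 (chr1:211675622-211675871, minus strand), BUB1B (chr15:40160819-40161068, plus strand) and MASTL (chr10:27155102-27155351, plus strand), all on GRCh38.p14. AURKB is not shown, nor is MELK, which held no match of these motifs.
BUB1: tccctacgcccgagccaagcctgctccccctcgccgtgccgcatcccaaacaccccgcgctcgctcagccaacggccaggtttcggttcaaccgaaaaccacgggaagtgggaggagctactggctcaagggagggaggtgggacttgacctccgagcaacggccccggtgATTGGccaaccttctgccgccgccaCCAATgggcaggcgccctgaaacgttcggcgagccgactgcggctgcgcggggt
NEK2: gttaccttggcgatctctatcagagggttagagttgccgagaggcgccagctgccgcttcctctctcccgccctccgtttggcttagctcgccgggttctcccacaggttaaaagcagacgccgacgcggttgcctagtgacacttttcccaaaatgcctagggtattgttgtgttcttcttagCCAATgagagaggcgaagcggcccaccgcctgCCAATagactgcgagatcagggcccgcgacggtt
BUB1B: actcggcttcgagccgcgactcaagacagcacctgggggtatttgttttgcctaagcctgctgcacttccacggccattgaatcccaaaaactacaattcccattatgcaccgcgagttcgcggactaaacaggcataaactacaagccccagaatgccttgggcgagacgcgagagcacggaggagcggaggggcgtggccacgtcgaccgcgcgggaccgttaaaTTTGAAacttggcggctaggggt
MASTL: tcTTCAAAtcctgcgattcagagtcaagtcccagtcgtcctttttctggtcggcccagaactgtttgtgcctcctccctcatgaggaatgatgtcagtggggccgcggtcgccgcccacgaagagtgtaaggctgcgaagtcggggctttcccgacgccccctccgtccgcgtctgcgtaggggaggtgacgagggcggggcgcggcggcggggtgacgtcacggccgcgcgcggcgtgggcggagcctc
The boxes begin at -79 (as ATTGG, the other strand) and -54 in BUB1 and at -66 and -34 in NEK2, counted back from the start. TTTGAA begins at -23 in BUB1B. In MASTL the match lies at -248 as TTCAAA, at the far end of the window. In the 50 bases after the start, not shown, BUB1 held TTCGAA from position 2 and MASTL TTTGAA from position 3. A match is a run of letters and no measured binding site.

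Genes known to regulate promoters of this kind also differed between groups, as did 78.3% of all genes tested (38.9% lower and 39.5% higher). Of 16 such genes, 12 fell, 3 rose and E2F5 did not pass (21.4 ± 1.03 CPM in siRPS19 and 21.6 ± 0.832 CPM in siOTP, adjusted p = 0.895). With library totals and with upper-quartile factors 11 fell and 4 rose, and E2F5 then passed upward (0.28 and 0.16 on the log2 scale). FOXM1, the forkhead activator of G2 and M genes, had 4.77, 2.99 and 4.26 CPM in siRPS19, against 183, 177 and 182 CPM in siOTP, a 44.7-fold fall. MYBL2, the B-MYB partner of the MuvB core, had 2.92, 1.86 and 3.39 CPM in siRPS19, against 174, 169 and 190 CPM in siOTP, a 64.6-fold fall. Both were lowest in siRPS19 replicate 2, like 8 of the kinases, and how many other genes were lowest there was not counted. The pocket protein genes moved apart: RBL1 fell 3.68-fold, and RBL2, whose product p130 belongs to the repressive DREAM complex, rose 1.55-fold to 116 ± 2.98 CPM in siRPS19, against 74.6 ± 1.20 CPM in siOTP. The MuvB subunit gene RBBP4 fell 3.59-fold and LIN37 rose 1.42-fold at 2.24 ± 0.377 CPM in siRPS19 and 1.59 ± 0.219 CPM in siOTP (adjusted p = 0.0289). LIN37 lost the threshold with DESeq2 (adjusted p = 0.0939), with no filter on low counts (0.0762), and without siRPS19 replicate 1 (0.121), siOTP replicate 1 (0.13) or siOTP replicate 3 (0.0757), which leaves 2 that rose. CDKN1A, which encodes p21 and restrains cyclin-dependent kinases, rose 15.1-fold, to 1040, 1129 and 1143 CPM in siRPS19, against 71.2, 67.5 and 80.5 CPM in siOTP.

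Other cell cycle kinases fell to very different extents. All 12 tested passed as lower, against 38.9% of all genes tested, with a median log2 fold change of -2.74. Scaled by library totals, 10 of them still passed. PLK1, the polo kinase, fell 53.1-fold to 5.08 ± 0.667 CPM in siRPS19, against 271 ± 8.10 CPM in siOTP. CDK1, the cyclin B partner, fell 39.4-fold, the cytokinesis kinase CIT 43.0-fold and the centriole kinase PLK4 35.7-fold. Picked with their values in view, the replication stress kinase CHEK1 fell 6.82-fold and WEE1, which inhibits CDK1, 2.12-fold. TLK1 and TLK2, kinases of chromatin assembly, changed least, by -0.30 and -0.36 on the log2 scale, and they were the members of this list that no longer passed with library totals.

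Partners of the checkpoint kinases were lower in 10 of 11 cases, against 38.9% of all genes tested, with a median log2 fold change of -2.75. CDC20, the activator of the anaphase-promoting complex that the checkpoint holds back, fell 67.8-fold to 3.63 ± 0.508 CPM in siRPS19, against 247 ± 10.8 CPM in siOTP. MAD2L1, which binds CDC20, fell 22.7-fold, the MAD2 remodelling enzyme TRIP13 11.4-fold and KNTC1, of the kinetochore complex that brings in dynein, 6.75-fold. MAD1L1, the MAD2 anchor, had 28.1 ± 1.63 CPM in siRPS19 and 26.3 ± 0.568 CPM in siOTP and did not pass (log2 fold change 0.09, adjusted p = 0.167). It passed upward with library totals (0.38) and upper-quartile factors (0.27), and also with a filter at a mean of 1 CPM (0.14) and without siRPS19 replicate 1 (0.15). BUB3, the binding partner of BUB1 and BUBR1, fell 1.64-fold, and it is mentioned outside the rule for named genes because of that value.

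All 6 genes for the chromosomal passenger complex and cohesion protection fell, against 38.9% of all genes tested, with a median of -4.56. BIRC5 (survivin) fell 71.5-fold, CDCA8 (borealin) 40.0-fold and INCENP, the scaffold that activates Aurora B, 9.23-fold, to 14.6 ± 0.610 CPM in siRPS19, against 135 ± 5.15 CPM in siOTP. SGO2, which protects centromeric cohesion, fell 15.9-fold. The 7 Aurora B substrates on the list fell as well, among them the microtubule depolymerase KIF2C by 59.9-fold, the centromeric histone CENPA by 53.4-fold, KIF23 by 24.2-fold and RACGAP1, its partner in the central spindle, by 15.7-fold.

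Aurora A partners were lower in 8 of 9 cases, against 38.9% of all genes tested, with a median of -2.54. TPX2, which activates Aurora A on the spindle, fell 34.6-fold to 11.8 ± 1.27 CPM in siRPS19, against 409 ± 9.97 CPM in siOTP. The kinesin KIF11 fell 37.9-fold, TACC3 21.8-fold and AUNIP 14.1-fold. AJUBA, a LIM protein that also acts at cell junctions, rose 1.20-fold, to 183 ± 11.6 CPM in siRPS19, against 153 ± 2.69 CPM in siOTP (adjusted p = 2.16e-05).

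No gene downstream of Greatwall fell by 2-fold or more. Of all genes tested, 38.9% passed downward, 39.5% upward and 12.4% with such a fall. The 10 genes are too few to read against these shares. Of 10, 8 were lower and 2 higher, with a median log2 fold change of -0.28, while scaling by library totals gave 4 lower and 4 higher with a median of 0.00, and upper-quartile factors 5 lower and 2 higher. ARPP19, a Greatwall substrate, stood at 262 ± 9.18 CPM in siRPS19 and 368 ± 4.08 CPM in siOTP, a 1.41-fold fall. The phosphatase subunit genes PPP2R2A and PPP2CA fell 1.69-fold and 1.59-fold, and PPP2R1B fell by 0.58 on the log2 scale. PPP2CB rose 1.14-fold, and PPP2R2B 3.39-fold at 0.928 ± 0.492 CPM in siRPS19 and 0.267 ± 0.0565 CPM in siOTP.

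Phosphatases that oppose the mitotic kinases fell by 2-fold or more in 3 cases, and in 1 case (CDCA2) with library totals or upper-quartile factors. With TMM factors 38.9% of all genes tested passed downward, 39.5% upward and 12.4% with such a fall. The 16 genes are too few to read against these shares. Of 16 genes, 12 fell, 3 rose and CDC14A did not pass (6.28 ± 0.606 CPM in siRPS19 and 5.90 ± 0.285 CPM in siOTP, adjusted p = 0.51). With library totals 10 fell and 4 rose, CDC14A among them (0.37). CDCA2, a mitotic chromatin targeting subunit of PP1, fell 28.2-fold to 3.31 ± 0.312 CPM in siRPS19, against 93.8 ± 2.26 CPM in siOTP. The catalytic subunit gene PPP1CC fell 2.23-fold, PPP2R5D 2.05-fold and PPP6R3 1.82-fold. PPP2R5B rose 2.71-fold, PPP6R2 1.42-fold and PPP1R7 1.16-fold. Of 7 genes for the centrosome linker that NEK2 dissolves and for its regulators, 5 fell and 2 rose, and with library totals 3 fell and 3 rose. Among the regulators, CEP85, which restrains NEK2, fell 4.64-fold and STK3 1.53-fold. The linker genes themselves were split. LRRC45 fell 1.79-fold and CEP250 1.32-fold, while CEP68 and CROCC rose 1.75-fold and 1.51-fold. CEP250 is mentioned outside the rule for named genes, and it no longer passed with library totals.

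**Figure D3:**
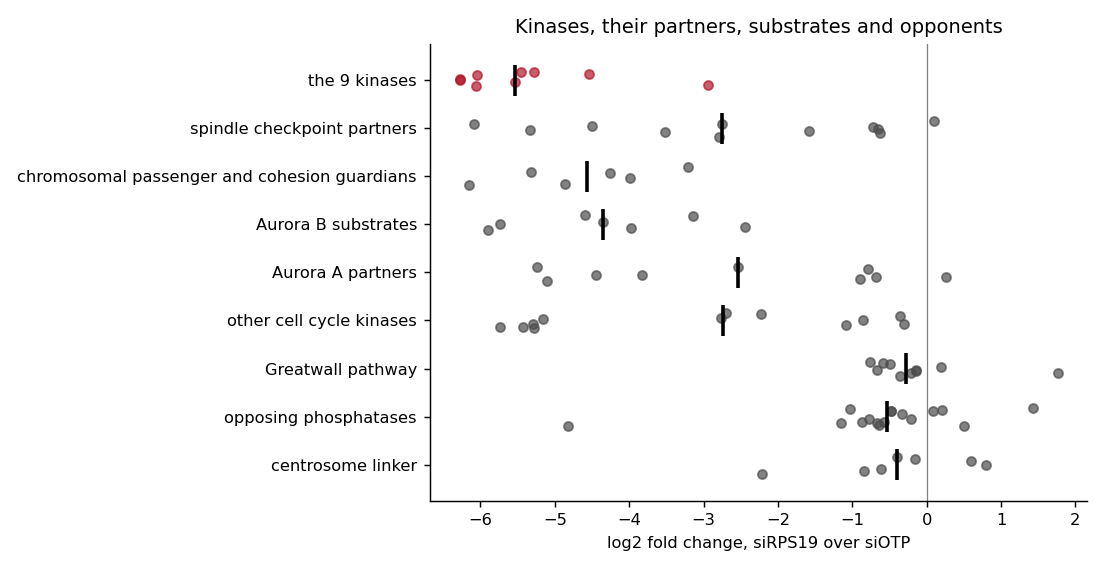
Log2 fold change of siRPS19 over siOTP for the 9 kinases (red) and for each tested gene of 8 lists (grey), with a vertical bar at each median and vertical jitter without meaning. The kinases centre at -5.53 and the passenger complex genes at -4.56, while the Greatwall genes centre at -0.28 and the phosphatases at -0.53.

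NEK2, MASTL and MELK were then set beside the rest of their kinase families. Of 10 other NEK genes, 7 rose, 2 fell and NEK5 did not pass (0.542 ± 0.141 CPM in siRPS19 and 0.451 ± 0.0169 CPM in siOTP, adjusted p = 0.47). Of all genes tested, 39.5% passed upward and 38.9% downward, and the family count was not tested against these shares. The count of 7 and 2 was the same with library totals, RLE and upper-quartile factors. NEK3, mentioned because its call was unstable, no longer passed with no filter on low counts (0.19, adjusted p = 0.0667) or without siOTP replicate 3 (0.149, adjusted p = 0.135). NEK9, which acts upstream of spindle assembly kinases, rose 1.77-fold to 231 ± 4.46 CPM in siRPS19, against 131 ± 4.84 CPM in siOTP, and NEK10 rose 2.38-fold. NEK6 and NEK4 fell 1.87-fold and 1.73-fold. The log2 ratio of NEK2 to the mean of these 10 was -3.44 ± 0.27 in siRPS19 and 2.61 ± 0.07 in siOTP (± SD, 3 libraries per group), a difference of -6.05.

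In the MAST family, which shares its catalytic domain type with Greatwall, MAST4 rose 4.77-fold to 29.3 ± 0.372 CPM in siRPS19, against 6.14 ± 0.668 CPM in siOTP. MAST3 rose 1.33-fold, MAST2 fell 1.42-fold, and MAST1 at 3.81 ± 0.189 CPM in siRPS19 and 4.45 ± 0.605 CPM in siOTP did not pass (adjusted p = 0.156), although it did without siOTP replicate 2, at -0.35. MASTL against the mean of these 4 was -1.06 ± 0.10 in siRPS19 and 2.27 ± 0.08 in siOTP (± SD, 3 libraries per group), a difference of -3.33. Of the 13 tested AMPK-related kinases, the family of MELK, 7 rose and 4 fell, and with library totals 9 rose and 2 fell. With TMM factors 39.5% of all genes tested passed upward and 38.9% downward, and the family count was not tested against these shares. NUAK1 (0.11, adjusted p = 0.0396), chosen here because its call was unstable, no longer passed with RLE factors (0.0517) or DESeq2 (0.114). SIK1 rose 1.76-fold and MARK4 1.80-fold, and PRKAA1, a catalytic subunit of AMPK, and MARK2 fell 1.47-fold and 1.33-fold. SIK2 and SIK3 missed the threshold (adjusted p = 0.0856 and 0.0758) at log2 fold changes of 0.11 and 0.12, and both passed upward with library totals (0.39 and 0.40), upper-quartile factors (0.28 and 0.29) and the filter at a mean of 1 CPM (0.16 and 0.16). SIK2 also passed without siOTP replicate 3 (0.14) and SIK3 without siRPS19 replicate 2 (0.15). MELK against the mean of these 13 was -2.98 ± 0.07 in siRPS19 and 1.56 ± 0.05 in siOTP (± SD, 3 libraries per group), a difference of -4.54. The exact two-sided permutation test gave p = 0.1 for each of these 3 family ratios, also after adjustment, the smallest value possible. The family ratios were chosen after the values were seen. Each difference largely restates the fall of the member itself, so the test adds nothing to it.

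**Figure D4:**
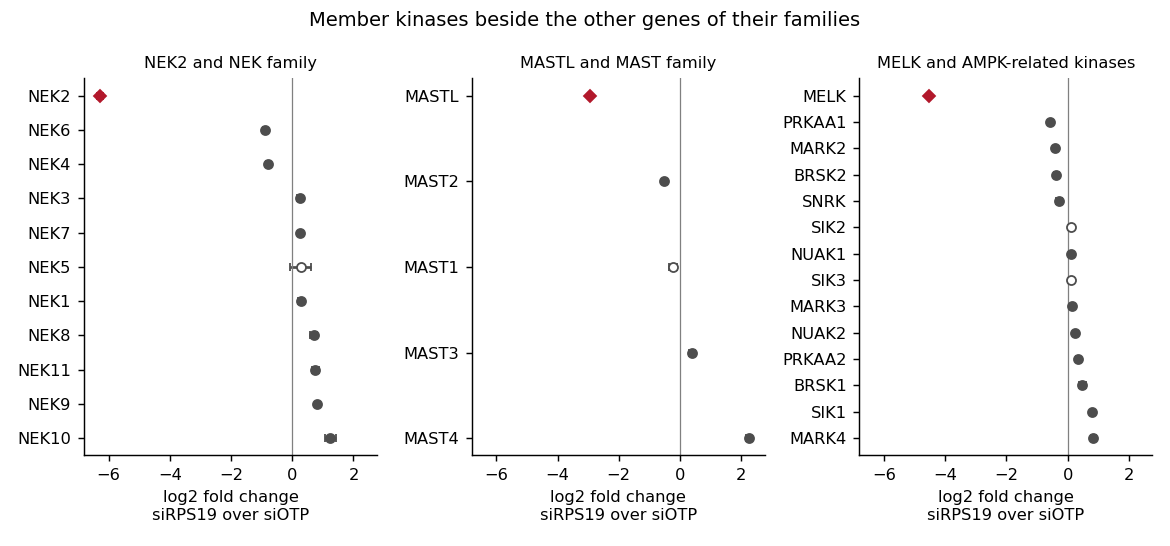
Log2 fold change of siRPS19 over siOTP with its standard error for NEK2, MASTL and MELK (red diamonds) and the tested genes of their families (grey circles, open where the test was not passed). The member lies lowest in each panel, at -6.28, -2.94 and -4.54, while the relatives lie between -0.90 and 2.26.

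The genes whose profile over the 6 libraries lay nearest to the members' mean profile were CDK1, TPX2, EXO1, CENPF and ESPL1. Likeness was the Euclidean distance between centred log2(CPM + 0.5) values among 11488 other genes with a mean of at least 5 CPM, and it ran from 0.123 for CDK1 to 0.151 for ESPL1. The members themselves lay between 0.167 (TTK) and 2.78 (MASTL) from that mean, so these 5 genes were nearer to it than any member. With only 2 groups the distance follows mostly the size of the fall. EXO1, a DNA repair exonuclease, had 1.54 ± 0.137 CPM in siRPS19 and 69.0 ± 1.56 CPM in siOTP. CENPF, a kinetochore protein, had 9.46 ± 0.813 CPM in siRPS19 and 332 ± 13.8 CPM in siOTP, and ESPL1, the separase that cuts cohesin, 1.68 ± 0.226 CPM in siRPS19 and 80.3 ± 1.94 CPM in siOTP (± SD, 3 libraries per group).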

How the data were processed

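TopHat2 (2.0.8b), HTSeq, DESeq, R (3.0.2) and genome build hg19 are listed by the submitters' processing notes. How HTSeq was set and which annotation it used is not stated. For each library the authors deposited unnormalised counts by Ensembl gene, and for each group 1 RPKM value per gene. Tested on that table, the group RPKM equalled the mean count plus 1, divided by the listed length in kilobases and by the group total in units of 1e+06, for 100% of 62729 genes within 0.0051 RPKM. Its other columns are the mean counts plus 1 and the transcript length, as deposited by the authors. 6 further columns of per-library counts were not used, as their names give no replicate.

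Genes were kept with filterByExpr (minimum count 10, minimum total 15), scaled with TMM factors and compared with the quasi-likelihood test of edgeR 4.0.16 in R 4.3.3 (robust fit, no block), with Benjamini-Hochberg adjustment over 17171 genes and a threshold of 0.05. Standard errors were derived from the F statistic of each fold change. The script was tested on simulated data. Entries that name no gene stayed out of library sizes: ambiguous reads, 7.50% to 8.24% of all entries, and reads outside genes. Replicates differed beyond sampling noise (chi-square per degree of freedom 4.40 to 16.6). Replicates with the same number have a common date in their descriptions, which pairs them. Their deviations from the group means correlated at 0.055, -0.095 and 0.045 across genes, which are not independent replicates. The labels call the replicates biological.

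The members and the 15 lists (138 symbols, 137 matched) were chosen with earlier results of these data known. Named are all members, RPS19, CDKN1A, FOXM1 and MYBL2, up to 4 genes per list with the smallest p, up to 4 that moved against the list or did not pass, and the 5 genes of nearest profile. As alternatives, 3 other scalings and 2 other filters were tried, as were DESeq2 1.42.0, voom in limma 3.58.1, a replicate block and leaving out each library. Promoter sequences are RefSeq's.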

Additional observations from a re-analysis of the deposited data

How the results depend on the processing

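All 9 kinases were lower and past the threshold under each of the 14 alternatives, with adjusted p up to 2.28e-10 (AURKA), and log2 fold changes ran from -6.53 to -5.99 for NEK2 and from -2.99 to -2.65 for MASTL. Leaving out a library gave 9 members lower each time, and the replicate block changed no member's call. With the block, 6701 genes were lower and 6783 higher, against 6673 and 6778. Without 1 library the counts were 6487 to 6673 lower and 6533 to 6850 higher. For genes of the lists the leave-one-out counts were 85 to 87 lower and 25 to 27 higher, against 87 and 27, and 87 and 27 with the block. The median shift over all genes was 0.29 (log2) with library totals and 0.17 with upper-quartile factors, so that 65.8% and 59.8% of called genes were higher, against 50.4%. These scalings by construction moved list genes with small falls above 0. With library totals the log2 fold change of PPP2R1A was 0.138, of PPP2R2C 0.0807, of PPP2R2D 0.140, of SAV1 0.134, of PPP6C 0.0817, of SNRK 0.0087, of E2F5 0.276 and of NFYC 0.0616. With upper-quartile factors that of PPP2R1A was 0.0248, of PPP2R2D 0.027, of SAV1 0.0201 and of E2F5 0.163. Of 1832 values of single genes, 1771 kept their direction and side, 35 lost the threshold and 14 gained it. Calls that ended when 1 library was left out, beside LIN37, were those of NEK3 (without siOTP replicate 3, 0.149), PPP2R2D (without siRPS19 replicate 2, -0.126), SAV1 (without siRPS19 replicate 1 or 3 or siOTP replicate 2, -0.133 to -0.105), SNRK (without siRPS19 replicate 3 or siOTP replicate 2, -0.238) and NUAK1 (without siRPS19 replicate 2 or any 1 siOTP replicate, 0.0693 to 0.106). Among ratios, AURKA to AURKB turned to -0.0049 with CPM + 5, which also changed the order of the members' shifts. AURKA to the mean of the other 8 turned to 0.0747 with CPM + 0.05, a setting chosen after seeing the data, and ran from -0.1667 to 0.0371 (without siRPS19 replicate 2) when a library was left out. TTK to the mean of the other 8 turned to -0.0724 with CPM + 0.05. The cause was not tested. Paired by date, an exact sign-flip test cannot go below 0.25, and its values were 0.25 for MASTL and 0.75 for AURKA. In the whole promoter window, 1 member (BUB1) held both CHR and CCAAT, against 0 in the 250 bases. Counts of 19 to 218 per kinase in siRPS19 limit the ratios between members.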
